A study of Mus musculus with 16 samples.

Results

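Lactate and pyruvate transport and conversion in mouse brown fat were followed through 7 genes, namely Ldha, Ldhb, Mpc1, Mpc2, Slc16a1, Slc16a3 and Pcx. They were chosen by symbol, as the rows of a raw read count table whose Ensembl identifiers map to those names. All 7 were found among the 38924 genes of the table, and all 7 passed the filter on low counts that left 14103 genes for testing. The tissue was interscapular brown fat, the heat-producing depot between the shoulder blades, measured by bulk RNA-seq in 4 groups of 4 libraries. The groups were KO at 22 °C, WT at 22 °C, KO at 30 °C and WT at 30 °C. KO mice lacked Akt2, a kinase of the insulin pathway, in brown fat through UCP1-CreER, a Cre recombinase under the promoter of Ucp1 that acts after tamoxifen. WT mice were their littermates. All mice were on the C57BL/6J background and were kept at their temperature for 4 weeks, from 9 to 13 weeks of age. For a mouse 30 °C is thermoneutral, whereas 22 °C is a mild cold load. Cells of the depot that do not express Ucp1 keep Akt2 in this model. Whether WT mice carried the Akt2 allele without Cre or received tamoxifen, and whether each library came from a separate animal, is not given in the sources used here. The p-values therefore measure the spread between these libraries.

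Library totals ranged from 12751528 to 23866743 counts. Akt2 averaged 82.2 ± 6.03 CPM (counts scaled to TMM-adjusted library size) in KO and 232 ± 19.8 CPM in WT at 22 °C, and 69.4 ± 10.7 CPM in KO and 204 ± 12.9 CPM in WT at 30 °C (SD, n = 4 each). Ucp1, the uncoupling protein of brown fat, averaged 7165 ± 1977 CPM in KO and 6178 ± 2462 CPM in WT at 22 °C, against 1786 ± 212 CPM in KO and 1518 ± 92.2 CPM in WT at 30 °C. All 12 brown adipocyte markers were detected in every group, and they took 1.79 to 3.00% of counts at 22 °C and 1.36 to 1.59% at 30 °C. Counts of 12 skeletal muscle markers exceeded 0.1% of the total in 4 libraries, which were KO replicate 1 at 22 °C (0.606%), KO replicates 1 and 2 at 30 °C (0.115 and 0.364%) and WT replicate 2 at 30 °C (0.243%). A circadian clock index, defined as log2 Dbp less log2 Arntl in CPM, lay between -3.43 and -2.20 in the KO libraries at 22 °C and between -0.80 and 1.78 in the WT libraries at 22 °C. At 30 °C it lay between -1.36 and 0.26 in KO and between -0.56 and 0.40 in WT. The KO libraries at 22 °C thus did not overlap with any other group in this index. In bulk tissue fewer cells of a type and less RNA per cell cannot be told apart.

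Pyruvate is the end product of glycolysis and stands at a branch point. Lactate dehydrogenase, assembled from A and B subunits that Ldha and Ldhb encode, interconverts pyruvate and lactate in the cytosol. The mitochondrial pyruvate carrier, a pair of inner membrane proteins made by Mpc1 and Mpc2, brings pyruvate to the matrix, where pyruvate dehydrogenase turns it into acetyl-CoA and pyruvate carboxylase, encoded by Pcx, turns it into oxaloacetate. Monocarboxylate transporters in the plasma membrane, MCT1 from Slc16a1 and MCT4 from Slc16a3, move lactate and pyruvate with a proton, and MCT4 is best known as the lactate exporter of strongly glycolytic cells. Brown fat takes up much glucose when it makes heat, and brown adipocytes also import lactate and pyruvate as fuel.

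Per kilobase of the principal transcript, the level in KO at 22 °C was highest for Ldha at 474 ± 42.0 CPM per kb, followed by Mpc2 at 443 ± 42.0, Ldhb at 351 ± 25.6, Pcx at 233 ± 16.6, Slc16a1 at 126 ± 9.78, Mpc1 at 80.7 ± 5.31 and Slc16a3 at 1.03 ± 1.31 CPM per kb (SD, n = 4). In WT at 22 °C it was 808 ± 153 for Ldha, 731 ± 203 for Mpc2, 380.3 ± 77.9 for Ldhb, 327 ± 28.8 for Pcx, 136 ± 9.47 for Mpc1, 126 ± 13.2 for Slc16a1 and 0.37 ± 0.11 CPM per kb for Slc16a3. The spreads of Ldha and Mpc2 overlapped in both genotypes, and in WT also those of Ldhb and Pcx and those of Mpc1 and Slc16a1. This order depends on the length used. Mpc2 spans 1025 bases as principal transcript and 7344 as the union of all annotated exons. With the union, Ldha made up 46.4% of the sum of Ldha and Ldhb in KO at 22 °C, below Ldhb. Mpc1 then made up 37.5% of the sum of Mpc1 and Mpc2 there, against 15.4% with the principal transcripts. At 30 °C Ldhb led in both genotypes, with 329 ± 10.7 CPM per kb in KO and 274 ± 9.66 CPM per kb in WT, against 254 ± 21.8 CPM per kb in KO and 262 ± 28.7 CPM per kb in WT for Ldha, whose spread overlapped with that of Ldhb in WT. Together the 7 genes held 0.321 to 0.333% of all counts in KO and 0.386 to 0.488% in WT at 22 °C, and 0.221 to 0.240% in KO and 0.228 to 0.255% in WT at 30 °C. In the plot of CPM by library, Ldha, Mpc1, Mpc2 and Pcx share one order of groups, WT at 22 °C, then KO at 22 °C, then both groups at 30 °C.

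**Figure D1:**
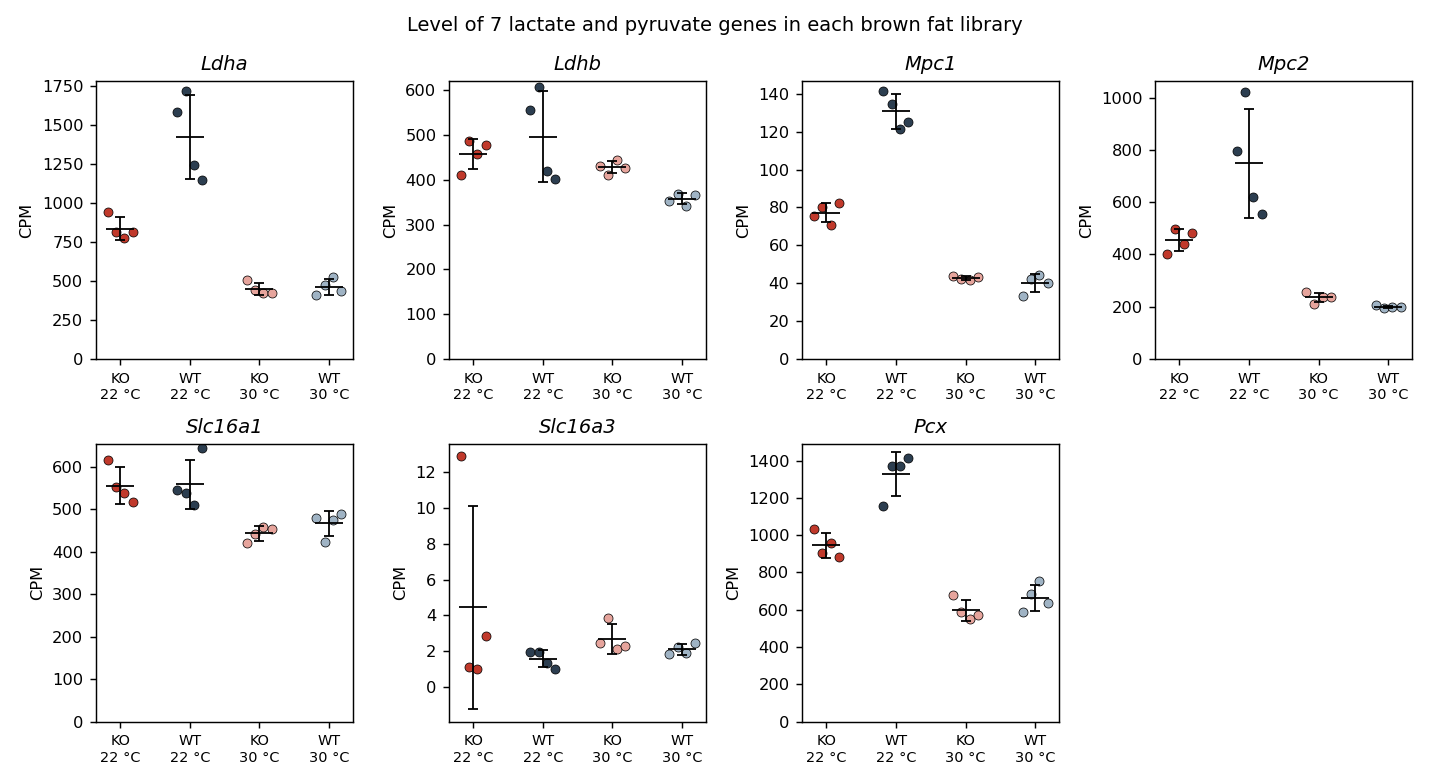
Level of each gene in CPM (scaled counts, y axis, linear) in each of 16 libraries (points, replicates 1 to 4 from left to right), by group (x axis), with the mean (long bar) and SD (capped line) of 4 libraries. For Ldha the KO libraries at 22 °C sit between 775 and 945 CPM, all below the WT libraries at 22 °C (1152 to 1719 CPM), while both 30 °C groups lie at 410.1 to 528 CPM; 1 KO library at 22 °C stands alone for Slc16a3 at 12.9 CPM.

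The promoters of Ldha, Pcx, Mpc1 and Mpc2, whose group means share the order given above, and of Slc16a1 are shown. They were chosen because 3 of them hold the E-box CACGTG, the letters bound by CLOCK and BMAL1, by MYC and by USF factors. Binding of these factors was not tested. All promoters shown are RefSeq windows on GRCm38.p6, plus strand, 250 bases before to 50 bases after a start site. Capitals mark every match to CACGTG or to ACGTG, a form of the core of the hypoxia response element, on either strand. Other forms of that core were not searched. An E-box always contains ACGTG on both strands. The window of Ldha at chr7:46845554-46845853 holds 2 E-boxes, that of Pcx at chr19:4510222-4510521 holds 1, and that of Slc16a1 at chr3:104638414-104638713 holds 1. The windows of Mpc1 at chr17:8283537-8283836 and of Mpc2 at chr1:165461010-165461309 hold neither CACGTG nor ACGTG.
Ldha: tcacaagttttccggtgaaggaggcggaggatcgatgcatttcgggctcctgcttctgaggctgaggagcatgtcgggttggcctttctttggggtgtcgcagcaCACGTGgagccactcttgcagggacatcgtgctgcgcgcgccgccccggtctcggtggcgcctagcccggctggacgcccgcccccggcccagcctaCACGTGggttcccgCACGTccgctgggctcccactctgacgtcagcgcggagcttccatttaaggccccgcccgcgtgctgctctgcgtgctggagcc
Pcx: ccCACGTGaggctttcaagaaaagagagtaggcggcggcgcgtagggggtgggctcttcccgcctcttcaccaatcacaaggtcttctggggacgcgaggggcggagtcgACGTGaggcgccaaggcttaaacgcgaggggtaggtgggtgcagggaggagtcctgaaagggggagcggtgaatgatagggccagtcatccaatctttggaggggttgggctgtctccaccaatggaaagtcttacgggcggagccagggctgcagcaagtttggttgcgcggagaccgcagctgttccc
Slc16a1: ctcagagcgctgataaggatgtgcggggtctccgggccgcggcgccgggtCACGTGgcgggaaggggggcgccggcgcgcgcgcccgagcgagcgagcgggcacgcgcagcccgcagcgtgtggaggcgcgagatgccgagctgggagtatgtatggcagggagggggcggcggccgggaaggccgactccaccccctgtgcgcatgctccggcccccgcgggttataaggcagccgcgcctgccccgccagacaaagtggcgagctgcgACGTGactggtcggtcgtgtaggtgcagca
Mpc1: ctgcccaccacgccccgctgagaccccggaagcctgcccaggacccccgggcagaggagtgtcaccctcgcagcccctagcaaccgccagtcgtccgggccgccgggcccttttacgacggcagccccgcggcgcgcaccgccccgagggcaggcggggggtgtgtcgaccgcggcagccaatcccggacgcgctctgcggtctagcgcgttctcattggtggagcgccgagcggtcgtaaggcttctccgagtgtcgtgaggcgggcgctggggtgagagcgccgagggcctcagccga
Mpc2: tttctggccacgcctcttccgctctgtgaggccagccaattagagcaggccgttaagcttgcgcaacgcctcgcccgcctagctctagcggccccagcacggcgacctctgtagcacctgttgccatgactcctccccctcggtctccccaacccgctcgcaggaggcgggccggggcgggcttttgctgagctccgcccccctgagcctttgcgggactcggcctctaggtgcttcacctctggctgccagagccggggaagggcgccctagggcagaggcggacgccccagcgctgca

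Counted from 0 at the first of the 50 bases, the E-boxes begin at -145 and -48 in the Ldha window, at -248 in that of Pcx and at -200 in that of Slc16a1. ACGTG outside an E-box begins at -34 in Ldha on the antisense strand, at -140 in Pcx and at 20 in Slc16a1. Among all 32851 windows of this length 7.15% hold CACGTG and 19.6% hold ACGTG. The windows of Ldhb, of the second Ldha start, of the second Mpc1 start and of the second Pcx start hold neither, and that of Slc16a3 holds ACGTG at -27 and -14. AAGGTCA, a binding motif of oestrogen-related receptors, is in none of the 10 windows of the 7 genes and in 4.72% of all windows, searched on both strands. Which start each brown fat transcript used was not measured.

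In KO mice 5 of the 7 genes were higher at 22 °C than at 30 °C and none was lower, where 13.8% of all tested genes were called higher and 13% lower (edgeR's quasi-likelihood test, Benjamini-Hochberg adjusted p under 0.05 over all 14103 genes). In WT mice 6 of the 7 were higher at 22 °C and none was lower, where 20.5% of all genes were called higher and 17.8% lower. In KO no gene among the 5 reached 2-fold. In WT the change was more than 3-fold for Mpc2, Mpc1 and Ldha, 2.00-fold for Pcx, and less than 1.5-fold for Ldhb and Slc16a1. The median log2 fold change was 0.72 for the 7 genes and 0.02 for all genes in KO, and 1.00 for the 7 genes and -0.03 for all genes in WT. The KO median is the value of Slc16a3, which was not called, and it was 0.62 without KO replicate 1 at 22 °C. The same 5 genes, Ldha, Mpc1, Mpc2, Slc16a1 and Pcx, were called in both genotypes, and Ldhb was called in WT.

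Between genotypes, 4 of the 7 genes (Ldha, Mpc1, Mpc2 and Pcx) were lower in KO than in WT at 22 °C and none was higher, where 10.1% of all genes were called lower and 7.52% higher. Their median log2 fold change was -0.49, against 0.02 over all genes. At 30 °C edgeR called none of the 7, where 0.0142% of all genes were called lower and 0.0284% higher. Ldhb, 1 of the 7, had an unadjusted p under 0.05 there, as did 608 of all 14103 genes tested. Neither DESeq2 nor limma-voom called any of the 7. The difference between the KO effects at 22 °C and at 30 °C, tested as an interaction, was called for Ldha, Mpc1 and Mpc2, all negative, where 2.39% of all genes were called negative and 0.752% positive. The comparisons share groups of libraries, so their values stand side by side and are not independent of each other.

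The clock index moved with genotype at 22 °C, with no overlap between KO and WT. With the index as a covariate, none of the 7 genes was called between KO and WT at 22 °C, where 0.617% of all genes were called lower and 0.156% higher. Calls over all genes were thus also fewer than the 10.1% lower and 7.52% higher without the covariate. The log2 fold change was then -0.31 for Ldha (adjusted p = 0.7), -0.57 for Mpc1 (adjusted p = 0.181), -0.02 for Mpc2 (adjusted p = 0.993) and -0.47 for Pcx (adjusted p = 0.401). None of the 3 interactions was called in that fit either, where 0.184% of all genes were called negative and 0.0213% positive. At 22 °C the genotype and the index cannot be told apart. In KO the index did not overlap between 22 °C and 30 °C, so temperature and index cannot be told apart there either. Calls between temperatures in KO numbered 4 of the 7 with the covariate, without Slc16a1, where 9.08% of all genes were called higher and 6.63% lower. In WT they numbered 6 of the 7, where 17.6% were called higher and 14.1% lower. Endothelial markers took 0.0733 to 0.0968% of counts in KO and 0.0566 to 0.0758% in WT at 22 °C, and their part in the result was not tested. Their share was 0.108 to 0.122% in KO and 0.109 to 0.121% in WT at 30 °C. Macrophage markers took 0.0121 to 0.0150% in KO and 0.00938 to 0.0216% in WT at 22 °C, and 0.0237 to 0.0290% in KO and 0.0218 to 0.0351% in WT at 30 °C. The 4 white adipose markers took 0.00649 to 0.0190% in KO and 0.00462 to 0.0226% in WT at 22 °C, and 0.0158 to 0.0275% in KO and 0.0323 to 0.0476% in WT at 30 °C, so that their share was lower at 22 °C without overlap in WT, and lower in KO than in WT without overlap at 30 °C. Erythroid marker shares lay between 0.0180 and 0.0437% and overlapped between all groups. The part of macrophage, endothelial, white adipose and brown adipocyte markers in the temperature result was not tested.

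**Figure D2:**
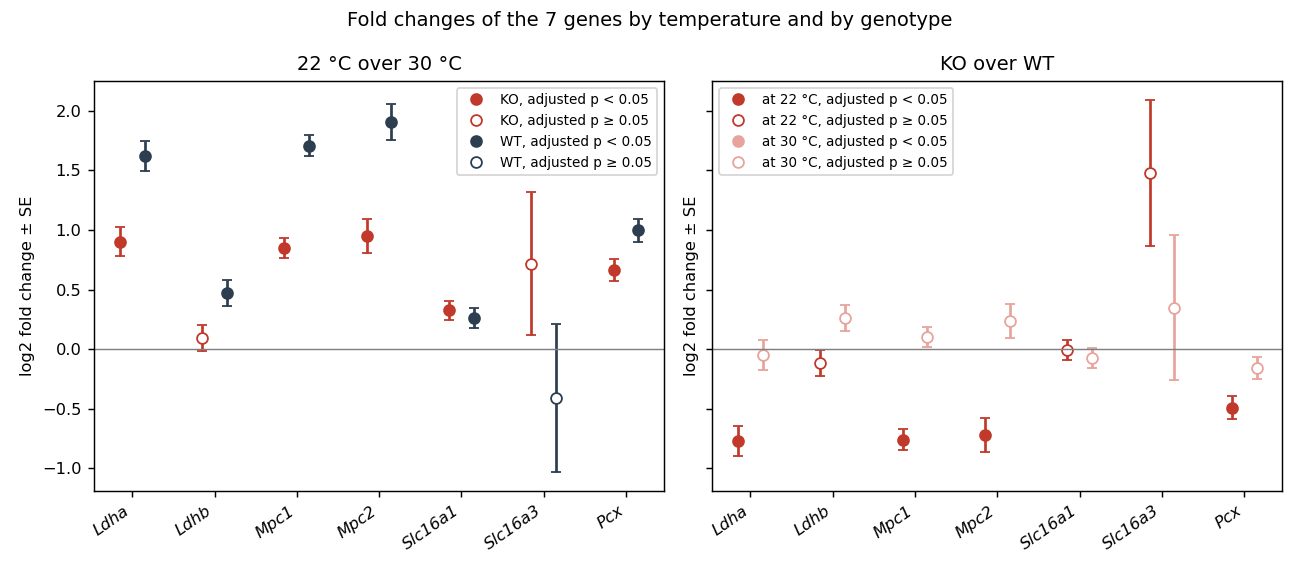
Log2 fold change with its SE (y axis) of each gene (x axis), for 22 °C over 30 °C in KO (left point of each pair) and WT (right point), and for KO over WT at 22 °C (left point) and at 30 °C (right point). Filled points have an adjusted p under 0.05. Mpc2 reaches 0.95 in KO and 1.90 in WT, and at 22 °C Ldha, Mpc1, Mpc2 and Pcx lie between -0.77 and -0.49 for KO over WT.

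Ldha, on chromosome 7 at 46841475 to 46855627 (plus strand, GRCm38, ENSMUSG00000063229), encodes the subunit that is known to favour conversion of pyruvate to lactate. It had 945, 813, 775 and 814 CPM in KO libraries and 1588, 1719, 1247 and 1152 CPM in WT libraries at 22 °C. At 30 °C it had 504, 440.4, 425 and 422 CPM in KO and 410.1, 476, 528 and 439 CPM in WT. Every KO library lay below every WT library at 22 °C and above every library kept at 30 °C, and the 30 °C groups overlapped. The log2 fold change of 22 °C over 30 °C in KO was 0.90 (SE 0.123, adjusted p = 0.000138), and in WT it was 1.62 (SE 0.125, adjusted p = 3.24e-07). At 22 °C KO over WT was -0.77 (SE 0.123, adjusted p = 0.000869), and at 30 °C it was -0.05 (SE 0.122, adjusted p = 0.998), and the difference of these effects was -0.72 (SE 0.173, adjusted p = 0.0363). That difference lost its call when any of 11 of the 16 libraries was left out, with adjusted p between 0.0532 and 0.0876, and without the 4 muscle-bearing libraries (-0.72, adjusted p = 0.197). The 11 were WT replicates 1, 2 and 4 and all 4 KO replicates at 30 °C, and WT replicate 1 and KO replicates 2, 3 and 4 at 22 °C. Here and for the genes below, the fit without muscle-bearing libraries has fewer libraries in both KO groups and in WT at 30 °C. Muscle content and group size cannot be told apart in it.

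Ldhb, on chromosome 6 at 142490249 to 142507957 (minus strand, ENSMUSG00000030246), encodes the subunit that prevails in oxidative tissues such as heart. It had 412, 487, 457 and 477 CPM in KO and 557, 607, 419 and 401 CPM in WT at 22 °C, and 431, 411, 445 and 427 CPM in KO and 353, 369, 342 and 366 CPM in WT at 30 °C. WT replicates 1 and 2 at 22 °C stood above all KO libraries, whereas WT replicate 4 stood below them. The same replicates 1 and 2 also had the highest Ldha and Mpc2 and the highest brown marker shares of their group, 2.47 and 3.00% of counts against 2.08 and 1.79% in replicates 3 and 4. Their clock index was highest as well, 0.90 and 1.78 against 0.79 and -0.80. Pcx did not follow this order, with replicate 1 lowest at 1155 CPM and replicate 4 highest at 1415 CPM. What sets these libraries apart was not tested. The log2 fold change of 22 °C over 30 °C was 0.10 (SE 0.111, adjusted p = 0.557) in KO and 0.47 (SE 0.111, adjusted p = 0.00366) in WT. At 22 °C KO over WT was -0.11 (SE 0.111, adjusted p = 0.493), and at 30 °C it was 0.26 (SE 0.111, unadjusted p = 0.0323, adjusted p = 0.998), where every KO library was higher than every WT library. The difference of these effects, -0.38 (SE 0.157, adjusted p = 0.186), did not pass.

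The balance of the subunits was followed as the log2 ratio of Ldha to Ldhb counts within each library, which does not depend on library scaling. The ratio was 1.20, 0.74, 0.76 and 0.77 in KO and 1.51, 1.502, 1.57 and 1.52 in WT at 22 °C, and 0.23, 0.10, -0.07 and -0.02 in KO and 0.21, 0.37, 0.63 and 0.26 in WT at 30 °C. The WT libraries at 22 °C were the highest and spanned 1.502 to 1.57, although their Ldha and Ldhb levels each differed by about 1.5-fold. KO replicate 1 at 22 °C, the library with the largest muscle marker share, stood above the other KO libraries of its group. KO minus WT was -0.66 at 22 °C, the groups did not overlap, and the exact two-sided permutation test of 4 against 4 libraries gave p = 0.0286, the smallest it can give, or 0.0858 adjusted over 12 ratio tests. Without KO replicate 1 the difference was -0.77. At 30 °C KO minus WT was -0.31, with an exact permutation p = 0.0571 and 0.137 adjusted. Between 22 °C and 30 °C the ratio differed by 0.81 in KO and by 1.16 in WT, each with the smallest exact permutation p of 0.0286 and 0.0858 adjusted. None of the 12 ratio tests passed the adjusted threshold. With 0.0286 as the smallest p, a few fully separated comparisons among the 12 could not pass it. The miss therefore does not show that the ratios were equal. Per kb of principal transcript, Ldha made up 57.4 ± 3.69% of the sum of Ldha and Ldhb in KO and 68.0 ± 0.46% in WT at 22 °C, and 43.5 ± 2.22% in KO and 48.8 ± 3.20% in WT at 30 °C (SD, n = 4). With the union of all annotated exons as length these shares were 46.4% in KO and 57.8% in WT at 22 °C and 33.1% in KO and 38.0% in WT at 30 °C.

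**Figure D3:**
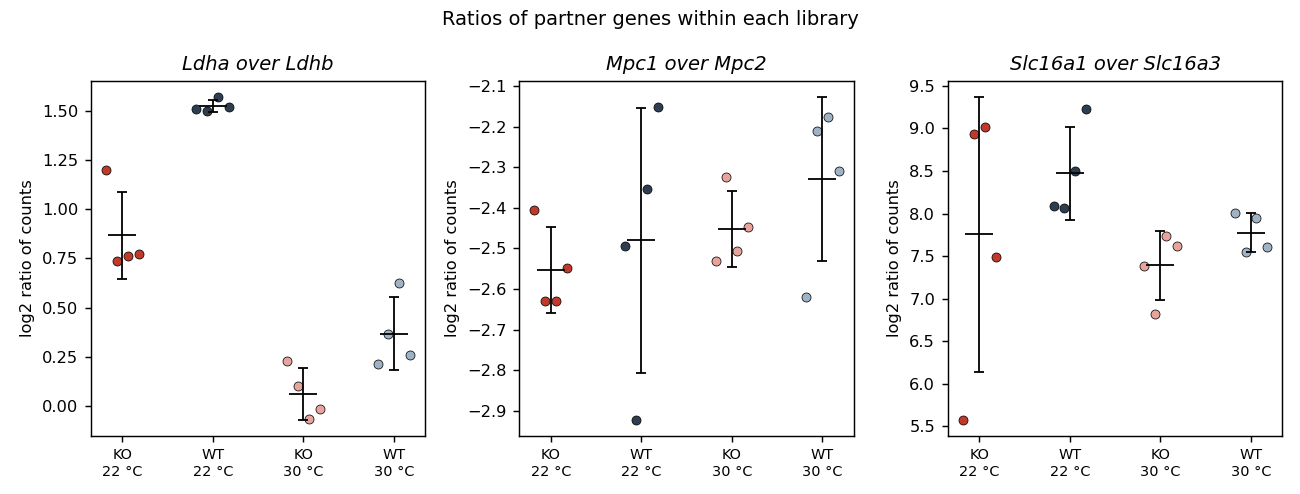
Log2 ratio of the counts of partner genes in each library (y axis, points) by group (x axis), with the mean (long bar) and SD (capped line) of 4 libraries. For Ldha over Ldhb the WT libraries at 22 °C lie at 1.502 to 1.57 and the KO libraries at 22 °C at 0.74 to 1.20, whereas the groups of Mpc1 over Mpc2 overlap.

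Mpc1, on chromosome 17 at 8282904 to 8297661 (plus strand, ENSMUSG00000023861), had 75.7, 80.2, 70.9 and 82.4 CPM in KO and 141, 135, 121 and 125 CPM in WT at 22 °C. At 30 °C it had 44.1, 42.3, 41.7 and 43.5 CPM in KO and 33.3, 42.5, 44.2 and 40.0 CPM in WT. The KO libraries at 22 °C formed a separate middle band, below every WT library at 22 °C and above every library at 30 °C. Its log2 fold change of 22 °C over 30 °C was 0.85 (SE 0.0855, adjusted p = 1.32e-05) in KO and 1.71 (SE 0.0868, adjusted p = 7.94e-09) in WT. At 22 °C KO over WT was -0.76 (SE 0.0847, adjusted p = 3.75e-05), and at 30 °C it was 0.10 (SE 0.0854, adjusted p = 0.998). The difference of these effects was -0.86 (SE 0.120, adjusted p = 0.0012), and it was called with each of the 16 libraries left out in turn and without the 4 muscle-bearing libraries (-0.87, adjusted p = 0.035).

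Reads of Mpc1 may be split with Mpc1-ps, a processed copy that held 160 to 861 counts a library, 24.2 to 33.5% of the count of Mpc1. Mpc1-ps averaged 20.5 ± 2.10 CPM in KO and 40.5 ± 1.96 CPM in WT at 22 °C, and 13.0 ± 1.33 CPM in KO and 11.3 ± 1.65 CPM in WT at 30 °C (SD, n = 4). With both rows summed, an alternative added after the data were seen, the log2 fold change of KO over WT at 22 °C was -0.81 and the interaction was -0.93, and both were called. The exons of Mpc1 also overlap 4930506C21Rik on the opposite strand, which held 23 to 83 counts. Named copies of Ldha, Ldha-ps and Ldha-ps2, held at most 3 counts a library.

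Mpc2, on chromosome 1 at 165460637 to 165481214 (plus strand, ENSMUSG00000026568), had 401, 496, 439 and 482 CPM in KO and 796, 1022, 621 and 557 CPM in WT at 22 °C. At 30 °C it had 255, 212, 238 and 237 CPM in KO and 205, 197, 200.04 and 198 CPM in WT. No groups of Mpc2 overlapped, and WT at 22 °C spread most, with replicate 2 at 1022 CPM and replicate 4 at 557 CPM. The log2 fold change of 22 °C over 30 °C was 0.95 (SE 0.145, adjusted p = 0.000304) in KO and 1.90 (SE 0.148, adjusted p = 3.31e-07) in WT. At 22 °C KO over WT was -0.72 (SE 0.144, adjusted p = 0.00387), and at 30 °C it was 0.23 (SE 0.144, adjusted p = 0.998). A fit on only the 8 libraries at 22 °C gave -0.72 with an adjusted p of 0.056. The difference of the effects was -0.96 (SE 0.203, adjusted p = 0.0228). It lost its call without any of 8 libraries, all 4 WT replicates and KO replicates 1, 3 and 4 at 30 °C and KO replicate 3 at 22 °C, with adjusted p between 0.0509 and 0.0639, and without the muscle-bearing libraries (-0.91, adjusted p = 0.172).

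The balance of the carrier's partners did not differ beyond the spread between libraries in any of 4 comparisons. The log2 ratio of Mpc1 to Mpc2 counts averaged -2.55 ± 0.11 in KO and -2.48 ± 0.33 in WT at 22 °C, and -2.45 ± 0.09 in KO and -2.33 ± 0.20 in WT at 30 °C (SD, n = 4). KO minus WT was -0.07 at 22 °C and -0.12 at 30 °C, and 22 °C minus 30 °C was -0.10 in KO and -0.15 in WT. The exact permutation p ranged from 0.257 to 0.686 over these 4 tests. A p that misses the threshold does not show that the ratios were equal.

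Slc16a1, on chromosome 3 at 104638668 to 104658462 (plus strand, ENSMUSG00000032902), was the monocarboxylate transporter gene with the higher level. It had 617, 553, 538 and 517 CPM in KO and 545, 538, 510.4 and 643 CPM in WT at 22 °C, and 419.7, 443, 458 and 454 CPM in KO and 479.9, 423, 476 and 489 CPM in WT at 30 °C. Within a temperature the genotypes overlapped, and every library at 22 °C was above every library at 30 °C. The log2 fold change of 22 °C over 30 °C was 0.33 (SE 0.0819, adjusted p = 0.00895) in KO and 0.26 (SE 0.0818, adjusted p = 0.0203) in WT. Both calls were lost without the 4 muscle-bearing libraries, at 0.23 (adjusted p = 0.166) in KO and 0.21 (adjusted p = 0.0847) in WT. The WT call was also lost with upper-quartile scaling (0.16, adjusted p = 0.0958), in a fit on only the WT groups (0.24, adjusted p = 0.08), without WT replicate 2 at 30 °C (0.22, adjusted p = 0.0571) and without WT replicate 4 at 22 °C (0.19, adjusted p = 0.0616), and the KO call with the clock covariate (0.10, adjusted p = 0.515). At 22 °C KO over WT was -0.01 (SE 0.0818, adjusted p = 0.961), and at 30 °C it was -0.07 (SE 0.0818, adjusted p = 0.998).

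Slc16a3, on chromosome 11 at 120948480 to 120960868 (plus strand, ENSMUSG00000025161), had the fewest counts of the 7 genes. It had 189, 18, 15 and 48 counts in KO and 40, 26, 22 and 18 counts in WT at 22 °C, and 35, 65, 28 and 42 counts in KO and 31, 39, 33 and 41 counts in WT at 30 °C. The 189 counts, or 12.9 CPM, came from KO replicate 1 at 22 °C, the library with 0.606% of its counts on muscle markers. The other 15 libraries lay between 1.00 and 3.89 CPM. KO over WT at 22 °C was 1.48 on the log2 scale (SE 0.615, adjusted p = 0.103) with that library and 0.05 (adjusted p = 0.945) without it. Leaving out KO replicate 3 at 22 °C instead gave 1.81 with an adjusted p of 0.0468. 22 °C over 30 °C in KO was 0.72 (adjusted p = 0.398) with KO replicate 1 at 22 °C and -0.70 (adjusted p = 0.16) without it. None of the 5 comparisons was called for Slc16a3 with all libraries. Per kb, Slc16a1 made up 99.2 ± 0.90% of the sum of both transporters in KO and 99.7 ± 0.10% in WT at 22 °C, and 99.4 ± 0.19% in KO and 99.5 ± 0.07% in WT at 30 °C (SD, n = 4).

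Bsg encodes basigin, the partner protein that MCT1 and MCT4 need to reach the cell surface, and averaged 509.6 ± 35.5 CPM in KO and 535 ± 123 CPM in WT at 22 °C, against 431 ± 57.9 CPM in KO and 389 ± 37.9 CPM in WT at 30 °C. The log2 fold change of 22 °C over 30 °C was 0.24 in KO (adjusted p = 0.215) and 0.46 in WT (adjusted p = 0.0172), so that it was called in WT. Emb, which encodes another partner protein of monocarboxylate transporters, averaged 1.70 to 3.11 CPM over the 4 groups. Its log2 fold change of 22 °C over 30 °C was -0.87 in KO (adjusted p = 0.0141) and -0.52 in WT (adjusted p = 0.0949), so that only KO was called. Slc16a7, which encodes the high-affinity transporter MCT2, averaged 16.1 ± 5.16 CPM in KO and 12.7 ± 1.75 CPM in WT at 22 °C, against 16.5 ± 2.81 CPM in KO and 21.1 ± 3.73 CPM in WT at 30 °C, and was lower at 22 °C in WT (-0.73, adjusted p = 0.00751). Hcar1, the lactate receptor of adipocytes, was called in no comparison and ranged from 9.01 to 97.9 CPM among the WT libraries at 22 °C alone.

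Pcx, on chromosome 19 at 4510472 to 4621752 (plus strand, ENSMUSG00000024892), had 1034, 906, 959.5 and 882 CPM in KO and 1155, 1373, 1368 and 1415 CPM in WT at 22 °C, and 677, 586, 548 and 574 CPM in KO and 589.6, 684, 752 and 635 CPM in WT at 30 °C. Every KO library at 22 °C lay between the WT libraries at 22 °C and both overlapping groups at 30 °C. The log2 fold change of 22 °C over 30 °C was 0.67 (SE 0.0942, adjusted p = 0.00018) in KO and 1.00 (SE 0.0947, adjusted p = 2.13e-06) in WT. At 22 °C KO over WT was -0.49 (SE 0.0940, adjusted p = 0.00305), and at 30 °C it was -0.16 (SE 0.0938, adjusted p = 0.998). The difference of these effects was -0.33 (SE 0.133, adjusted p = 0.169) and did not pass, so an effect at 22 °C alone is not shown for Pcx.

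A further list of 26 genes, of which 24 were tested, holds other monocarboxylate transporters and their partner proteins, the lactate receptor, other lactate dehydrogenases, enzymes that make or use pyruvate, the pyruvate dehydrogenase kinases, and enzymes of the neighbouring oxaloacetate, malate and aspartate steps. In KO 4 of the 24 were higher and 5 lower at 22 °C, where 13.8% of all genes were called higher and 13% lower, with a median log2 fold change of 0.10. Me1, the cytosolic malic enzyme that makes pyruvate and NADPH, was at 1.81 (adjusted p = 8.4e-05), Pck2, the mitochondrial phosphoenolpyruvate carboxykinase, at -1.62 (adjusted p = 1.05e-05) and Got2, the mitochondrial aspartate aminotransferase, at -1.08 (adjusted p = 0.00433). In WT 10 of the 24 were higher and 4 lower, where 20.5% of all genes were called higher and 17.8% lower, with a median of 0.21. Me1 led with 3.28 (adjusted p = 2.2e-07), followed by Pdhb, a subunit of pyruvate dehydrogenase, with 1.84 (adjusted p = 1.52e-07), while Got2 fell by 1.35 (adjusted p = 0.000506).

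Between genotypes at 22 °C none of the 24 was higher in KO and 8 were lower, where 7.52% of all genes were called higher and 10.1% lower, with a median of -0.18. Me1 averaged 241 ± 55.8 CPM in KO and 832 ± 112 CPM in WT (log2 fold change -1.79, adjusted p = 0.00013). Pdhb averaged 485 ± 43.8 CPM in KO and 1175 ± 206 CPM in WT (-1.28, adjusted p = 1.51e-05). Pdk1, a kinase that inhibits pyruvate dehydrogenase, averaged 77.1 ± 8.85 CPM in KO and 181 ± 17.3 CPM in WT (-1.23, adjusted p = 2.51e-06). The other kinases of this enzyme were not called, with Pdk2 at -0.16 (adjusted p = 0.183), Pdk3 at 0.30 (adjusted p = 0.357) and Pdk4 at -0.03 (adjusted p = 0.916). Pdk4 had the most counts of the 4 kinases, with 2602 ± 549 CPM in KO and 2658 ± 151 CPM in WT. Pdk2, Pdk3 and Pdk4 were named after their values were seen. Ldhd, which oxidises D-lactate in mitochondria, averaged 174 ± 14.6 CPM in KO and 205 ± 14.9 CPM in WT at 22 °C (-0.24, adjusted p = 0.0456). Unlike Ldha it was lower at 22 °C than at 30 °C in KO (-0.54, adjusted p = 0.000251), and it was at -0.17 in WT (adjusted p = 0.104). At 30 °C edgeR called none of the 24, and 2 had an unadjusted p under 0.05, as did 608 of all 14103 genes tested.

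The interaction was called for 7 of the 24, all negative, where 2.39% of all genes were called negative, with a median of -0.37 against -0.38 for the 7 genes themselves and 0.01 over all genes. Me1 was at -1.47 (adjusted p = 0.0243), Pdhb at -1.26 (adjusted p = 0.00154) and Pkm, the pyruvate kinase that makes pyruvate, at -1.15 (adjusted p = 0.000954). Pkm averaged 746 ± 29.6 CPM in KO and 1556 ± 293 CPM in WT at 22 °C, against 852 ± 28.1 CPM in KO and 803 ± 75.3 CPM in WT at 30 °C, so that its KO libraries at 22 °C did not stand above the 30 °C groups as those of Ldha did. With the clock covariate 1 of the 24 was called between genotypes at 22 °C, where 0.617% of all genes were called lower and 0.156% higher. In that fit 1 of the 24 was called in the interaction, where 0.184% of all genes were called negative and 0.0213% positive. In the plot of the response to 22 °C in both genotypes, Ldha, Ldhb, Mpc1, Mpc2 and Pcx lie below the line of equal response with Me1 and Pdhb, although the interaction was not called for Ldhb and Pcx, and Slc16a1 lies near it.

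**Figure D4:**
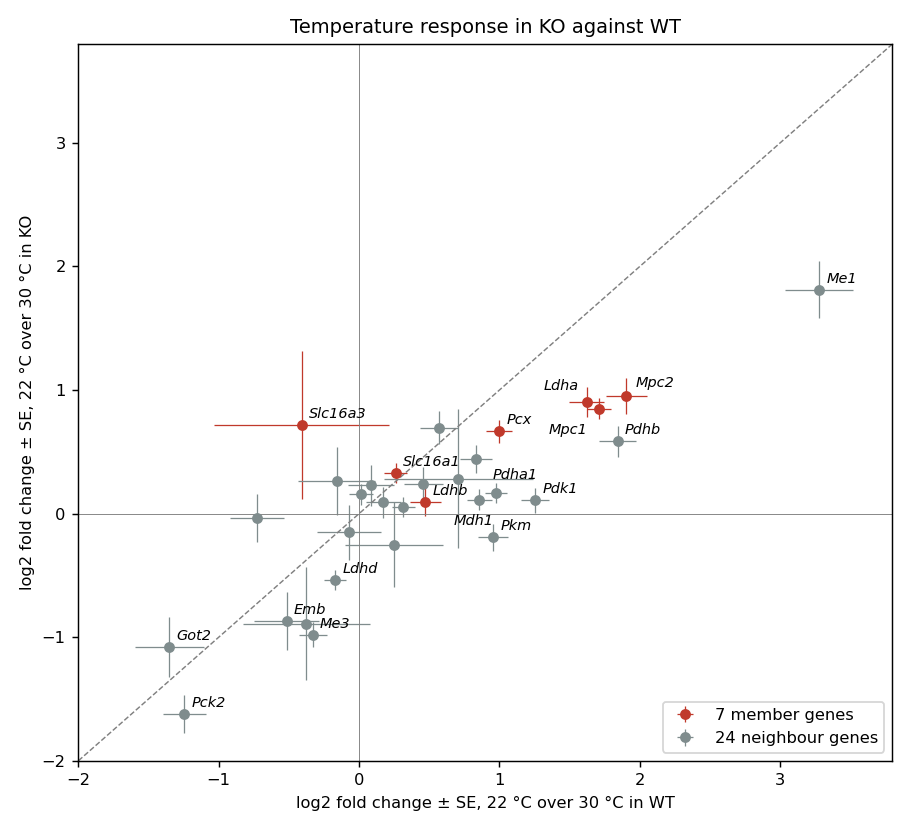
Log2 fold change of 22 °C over 30 °C in KO (y axis) against that in WT (x axis), with SE bars, for the 7 genes and for 24 tested genes around them. The dashed line marks an equal response, and the 30 °C and 22 °C libraries of each genotype are separate. Mpc2 sits at 0.95 in KO and 1.90 in WT, Me1 at 1.81 in KO and 3.28 in WT, and Slc16a1 at 0.33 in KO and 0.26 in WT.

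Across the 16 libraries, and as a description over libraries that share 4 groups, log2 CPM of Ldha correlated with that of Mpc1 at Pearson's r = 0.98, with Mpc2 at 0.97 and with Pcx at 0.96. With group means removed these values were 0.63, 0.64 and 0.31. Mpc1 with Mpc2, Mpc1 with Pcx and Mpc2 with Pcx had 0.97, 0.95 and 0.90 over the 16 libraries. With group means removed they had 0.36, 0.20 and -0.22. The pair most alike within groups was Ldhb and Mpc2, at 0.94 with group means removed and 0.81 without. Among 10135 genes with a mean log2 CPM of at least 2, those most like each gene over the 16 libraries were Chchd3 (0.986) and Dbi (0.984) for Ldha, and Eci1 (0.959) and Sdhb (0.942) for Ldhb. They were Gfm1 (0.986) and Chchd3 (0.985) for Mpc1, and Sdhd (0.997) for Mpc2. They were Nars (0.910) and Lpcat3 (0.906) for Slc16a1, Snapc1 (0.893) and Junb (0.885) for Slc16a3, and Capn2 (0.973) and Me1 (0.971) for Pcx. With group means removed, in the same order, r was 0.71 and 0.76 for Ldha and 0.93 and 0.94 for Ldhb. It was 0.61 and 0.61 for Mpc1, 0.97 for Mpc2 and 0.85 and 0.65 for Slc16a1. For Slc16a3 it was 0.91 and 0.89, and for Pcx 0.57 and 0.49. The values for Slc16a3 include KO replicate 1 at 22 °C, the library that stood apart, and were not computed without it.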

How the data were processed

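The deposited file holds raw read counts per Ensembl gene for 16 libraries, as the authors made them and with no scaling visible in the values. The submitters' processing notes list STAR 2.4.2a with FastQC 0.10.1, edgeR 3.14.0 and the build GRCm38, without their roles. What counted the reads, on which annotation and strand, is not given in the sources used here, so reads on opposite strands cannot be told apart. Libraries were grouped by title. Symbols matched 37607 identifiers. In R 4.3.3, edgeR 4.0.16 fitted all groups in 1 quasi-likelihood model, with TMM factors, to genes kept by filterByExpr (minimum count 10), after a check on simulated counts. SE is the absolute log2 fold change over the square root of F. CPM uses TMM-scaled library sizes. Ratios of counts (pseudocount 0.5) were compared by exact permutation of 4 against 4 libraries. Lengths are those of the longest principal transcript in GENCODE on GRCm38, and promoters are from RefSeq, GRCm38.p6. Named were the 7 genes, from the list of 26 Bsg, Emb, Slc16a7, Hcar1, Ldhd and the 3 largest called changes in each comparison, the 2 genes most like each member (1 of them is not reported here), and Akt2 and Ucp1. Alternatives were other scaling factors, filters, DESeq2 1.42.0, limma-voom 3.58.1, fits on compared groups, a replicate block, left-out libraries and a clock covariate. The members and lists were chosen with earlier results of these data known.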

Additional observations from a re-analysis of the deposited data

Results flagged for a closer look

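Slc16a3 in KO replicate 1 at 22 °C stood far from the other libraries of its group, at 12.9 CPM. Of the 28 groups of 4 values examined, chance alone would single out about 1 in 20. This library also had the largest share of counts on skeletal muscle markers, 0.606%, and their part in the value was not tested.

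For 3 genes the KO effect at 22 °C differed from that at 30 °C by a test of the interaction itself. The difference was -0.72 on the log2 scale for Ldha, -0.86 for Mpc1 and -0.96 for Mpc2. With single libraries left out, the call was lost in 11 of 16 fits for Ldha and in 8 of 16 for Mpc2. Mpc1 kept its call in each. In the KO libraries at 22 °C the clock index did not overlap with that of any other group, and the values with it as a covariate were -0.33 for Ldha (edgeR adjusted p = 0.874), -0.70 for Mpc1 (adjusted p = 0.183) and -0.36 for Mpc2 (adjusted p = 0.857).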

How the results depend on the processing

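Of the values of the 7 genes under alternative settings, 631 kept their direction and their side of the threshold, 37 lost a call, 1 gained one, and 15 changed sign, none of them called with or without the alternative. With single libraries left out, those with a change of sign ranged from -0.70 to 1.05 (log2) for Slc16a3 between temperatures in KO, from -0.29 to 1.46 for its interaction, from -0.069 to 0.067 for Slc16a1 between genotypes at 22 °C and from -0.11 to 0.0092 for Ldha between genotypes at 30 °C. For Slc16a3, limma-voom gave -0.63 between temperatures in KO and -0.056 for the interaction, and leaving out the muscle-bearing libraries gave -0.41 and -0.027. For Ldhb, upper-quartile factors gave -6.2e-05 between temperatures in KO, limma-voom 0.047 between genotypes at 22 °C, and the clock covariate 0.38 there and 0.041 for the interaction. The covariate also gave -0.24 for the interaction of Slc16a1 and 0.018 for Ldha between genotypes at 30 °C. With the clock covariate the calls among the 7 genes numbered 0 for KO against WT at 22 °C and 0 for the interaction, those among the 24 listed genes 1 and 1, and those among all genes 109 and 29, with 2215 for 22 °C against 30 °C in KO. Without the 4 muscle-bearing libraries the interaction was called for 1 of the 7 genes and for 96 genes in all, and genes called numbered 2115 for 22 °C against 30 °C in KO, 1432 for KO against WT at 22 °C and 1 for KO against WT at 30 °C. With single libraries left out, the interaction was called for 1 to 3 of the 7 genes and 147 to 1085 genes, and KO against WT at 30 °C gave 2 to 7 genes. Other counts of genes that moved by over 1.5 times were 6067 with limma-voom for 22 °C against 30 °C in KO, 634 in a fit on only the 22 °C groups, 22 with DESeq2 and 44 with limma-voom for KO against WT at 30 °C, and, for the interaction, 236 with no filter, 1076 with DESeq2 and 1050 with limma-voom. Upper-quartile factors brought the median of all genes between temperatures in WT to -0.13 (log2), and the calls to 2196 higher and 3382 lower in WT and 1179 higher and 2540 lower in KO. The cause of these shifts was not tested.

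With group means removed, at most 1 of 4 pairs of libraries with the same replicate number correlated above 0.1 in each of 4 comparisons. The highest value was 0.29, for replicate 4 between KO and WT at 30 °C. With so few libraries this cannot exclude a batch shared by replicate number. With a replicate block the interaction was called for 186 genes and for 2 of the 7, and Ldha was at -0.71 (adjusted p = 0.0595). Depth limits Slc16a3 alone among the 7, with 15 to 189 counts a library against at least 553 for the others.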
